A study of Mus musculus with 4 samples.

Results

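A set of 10 subunit genes of the NuRD corepressor complex was examined in sciatic nerve RNA of control and Zeb2 cKO mice, namely Hdac1, Hdac2, Chd3, Chd4, Mta1, Mta2, Mta3, Mbd2, Mbd3 and Rbbp4. They were chosen by name as subunits of the complex that the Zeb2 protein recruits. The rule uses no measured value, but the set was proposed with earlier results of these data known. They are among 22096 gene symbols in the tables and hold 13 of 28107 transcript rows. All 13 rows had a quantification status of OK in both libraries, and all 10 genes are among the 12903 that reached a mean of 1 FPKM (fragments scaled to transcript length and to the mapped fragments of the library).

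The mice were of mixed strain background and 7 days old (P7), an age at which myelin is being made in the nerve. One group is labelled as control and the other as Zeb2 cKO, a conditional knockout of the zinc finger transcription factor Zeb2. The labels give neither the Cre line and deleted exons nor the genotype of the controls, and each sample was RNA of pooled sciatic nerves. They describe 2 samples per group, while the tables used here hold 1 library per group, so the differences have no replicate check and no test between the conditions is given.

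NuRD joins histone deacetylation to nucleosome remodelling on the same complex. Hdac1 or Hdac2 removes acetyl groups from histone tails, a CHD helicase (Chd3 or Chd4) moves nucleosomes, MTA proteins form the scaffold that binds the deacetylase, Mbd2 or Mbd3 joins the scaffold to the remodeller, and Rbbp4 or Rbbp7 holds histones. Sequence-specific repressors recruit the complex, Zeb2 among them. In Schwann cells, Hdac1 and Hdac2 are needed for myelination, and Chd4 works with the Nab cofactors of the myelin regulator Egr2.

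Zeb2 (chr2:44839154-44968799, mm9) measured 34.4 FPKM in control nerve and 19.5 FPKM in Zeb2 cKO nerve. That is 0.568 of the control level with a counting interval of 0.548 to 0.589. The value averages over a transcript of 9113 bases whose deleted exons are not given, so it does not measure how complete the deletion is. Gm13476 and Mir5129 overlap the Zeb2 locus, and reads carry no strand here. Counting intervals here are 95% intervals on reads estimated from the coverage column. The variation among animals and libraries is not in them. The estimated depth was 29728140 reads for the control and 20287174 reads for the Zeb2 cKO library. The median of all 12903 genes had a log2 ratio of 0.18, Zeb2 cKO over control, computed with 1 FPKM added to each level. Counts of genes 2-fold apart are on this scale unless another is named. Each member is therefore also given relative to that median gene, by scaling the Zeb2 cKO levels by 0.881. With 1 FPKM added after this scaling, the median of all genes is at 0.02 and not at 0. Among Schwann cell markers, the myelin regulator Egr2 measured 54.5 FPKM in control and 8.79 FPKM in Zeb2 cKO nerve, and the calcium-binding protein S100b 188 and 42.5 FPKM, both 2-fold or more lower. All 10 skeletal muscle markers, led by Myh1, Acta1 and Tnni2, were 2-fold or more lower (summed 6750 and 799 FPKM). At least 2-fold higher were 3 of 6 fibroblast markers (Etv1, Dcn and Lum; summed 3897 and 6305 FPKM) and 4 of 5 perineurial markers (led by Moxd1, Cldn1 and Dleu7; 76.2 and 261 FPKM). So were 4 of 5 adipocyte markers (led by Cfd, Fabp4 and Adipoq) and 2 of 6 pericyte markers (Cspg4 and Rgs5), which after rescaling to the median gene were 2 and 0. None of 7 endothelial, 7 macrophage, 5 neuronal or 10 cell cycle genes passed 2-fold with 1 FPKM added, with Sox18, Cd163, Gap43 and Rrm2 the furthest. Their median log2 ratios were 0.82, 0.17, 0.05 and 0.49 in that order. All endothelial and cell cycle genes were above 0 (lowest 0.45 and 0.06). The macrophage and neuronal genes were mixed. Cd163 was at 0.52, with Lyz2, Itgam and Mrc1 above 0 as well, while Csf1r, Cd68 and Emr1 lay between -0.09 and -0.04. Gap43 was at 0.82 and Nefm and Nefl at 0.12 and 0.05, while Uchl1 and Tubb3 were at -0.59 and -0.56. The endothelial markers summed to 138 FPKM in control and 232 FPKM in Zeb2 cKO nerve. With 0.1 FPKM added, 2 of 7 endothelial and 3 of 6 pericyte markers were 2-fold higher (Sox18 and Plvap, and Myh11 besides Cspg4 and Rgs5). The 7 lymphocyte markers summed to 1.01 and 1.30 FPKM. The part that these cell types have in the members' values was not tested. In bulk nerve RNA, fewer cells of a type and less RNA per cell cannot be told apart.

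Of the 10 subunits, 9 lay within 2-fold of their control level, and Chd3 was above it. With 1 FPKM added, 1 of 10 members was at least 2-fold higher in Zeb2 cKO nerve and 0 of 10 were at least 2-fold lower. Among all measured genes 8.59% were that much higher and 6.25% that much lower (14.8% either way), so 1 of 10 is near the background. At 1.5-fold the members' counts were again 1 and 0, where 19.7% of all genes were higher and 9.81% lower (29.5% either way). The median log2 ratio of the members was 0.16, against 0.18 for all genes, and ran from -0.12 for Rbbp4 to 1.10 for Chd3. Without Chd3 the largest value was 0.47. After rescaling to the median gene the members' median was -0.02, where that of all genes was 0.02. In this setting 0 of 10 were 2-fold apart in either direction. The background there was 6.25% higher and 7.29% lower (807 and 940 genes, 13.5% either way, against 1109 and 806 genes as deposited). Scaled by 0.881, Hdac2, Chd3, Mta1 and Mta3 had counting intervals above a ratio of 1. Those of Chd4, Mta2, Mbd3 and Rbbp4 lay below 1, and those of Hdac1 and Mbd2 held it. On the log2 scale with 1 FPKM added, the interval of Mta3 (0.178 to 0.516) held the median gene at 0.183. Mta3 is thus not set apart from the median gene.

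Most members were abundant transcripts. In the control library 9 of the 10 stood between the 67.9th and the 89.8th percentile of measured genes by FPKM, and Mta3 stood at the 43.7th. The order there, from high to low, was Mbd3, Hdac2, Rbbp4, Mbd2, Chd4, Mta2, Hdac1, Mta1, Chd3 and Mta3. Counting intervals of neighbours overlapped for Rbbp4 with Mbd2 and for Mbd2 with Chd4, and the other neighbours were apart. In the Zeb2 cKO library Hdac2 stood above Mbd3, and Chd3 stood above Hdac1 and Mta1, with an interval that overlapped that of Mta2. Rbbp4, Chd4, Mta2 and Chd3 followed one another there with overlapping intervals.

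**Figure D1:**
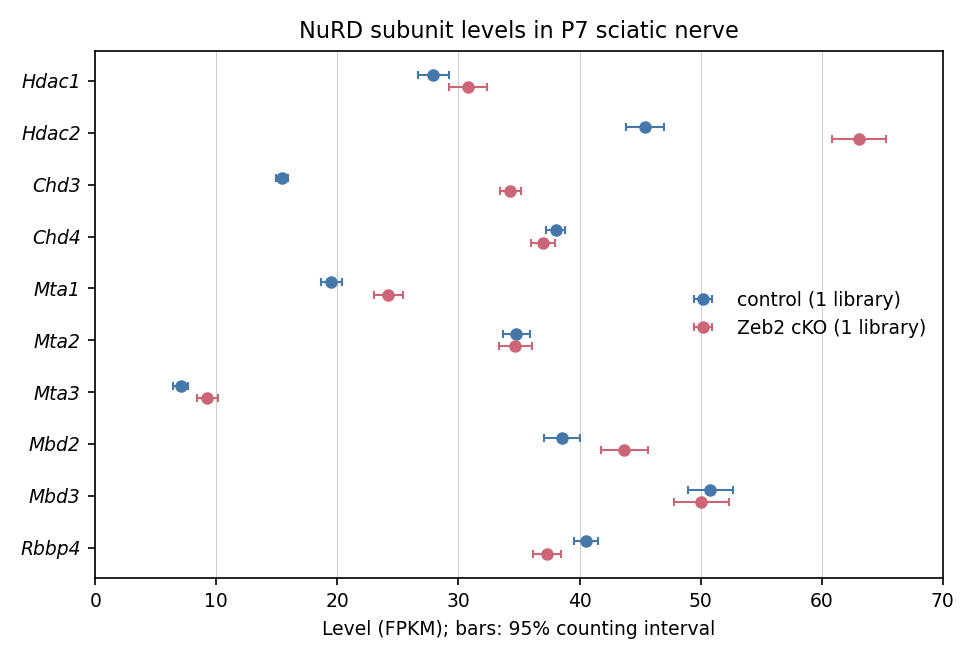
Level of each member in FPKM (horizontal axis) in the control library and the Zeb2 cKO library, with 95% counting intervals as bars and 1 library per group. Chd3 stands at 15.4 and 34.3 FPKM and Hdac2 at 45.4 and 63.1 FPKM, while the points of Chd4, Mta2 and Mbd3 lie close together.

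**Figure D2:**
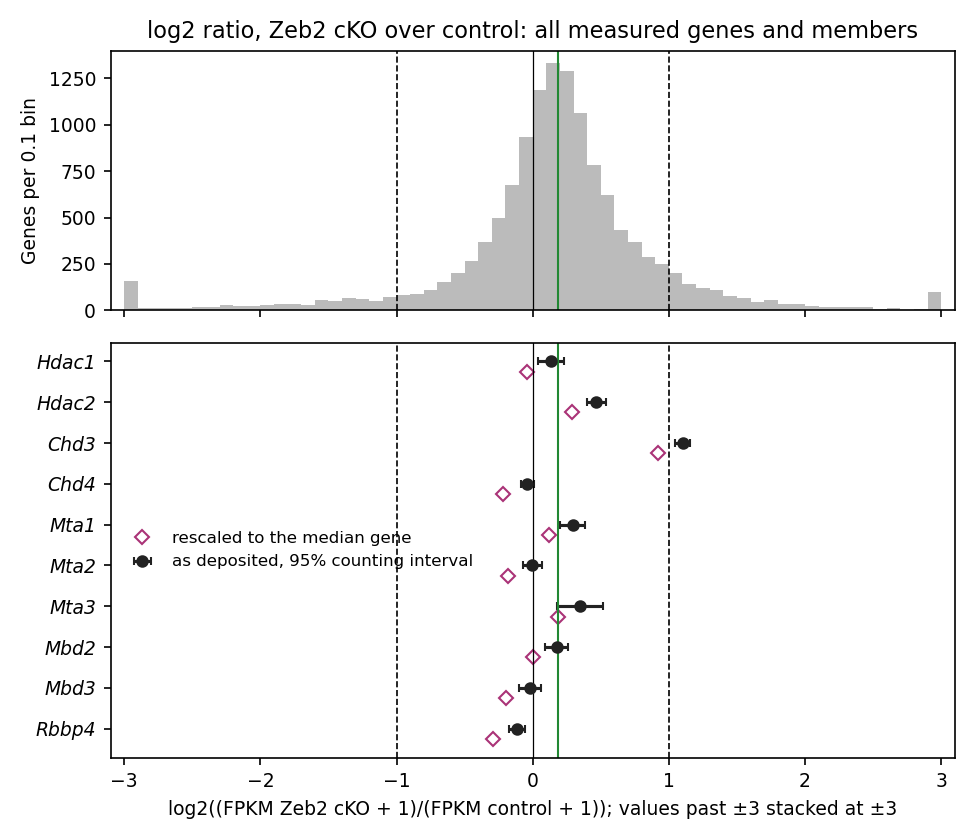
Upper panel, number of measured genes in bins of the log2 ratio of Zeb2 cKO over control, and lower panel, the ratio of each member with its 95% counting interval (filled) and after rescaling to the median gene (open). Dashed lines mark 2-fold and the green line the median gene at 0.18; only Chd3, at 1.10, lies past a dashed line, and it lies inside at 0.92 after rescaling.

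The catalytic deacetylases were both higher by FPKM, though Hdac1 was slightly lower than control once rescaled to the median gene. Hdac1 (chr4:129193348-129219890, mm9) measured 27.9 FPKM in control nerve and 30.8 FPKM in Zeb2 cKO nerve, from about 1958 and 1470 reads. That is 1.10-fold higher (counting interval 1.03 to 1.18), and 0.971 of the control relative to the median gene (0.907 to 1.04). Hdac2 (chr10:36694350-36721694) measured 45.4 FPKM in control nerve and 63.1 FPKM in Zeb2 cKO nerve, the highest level of any member in that library. It was 1.39-fold higher (1.32 to 1.46) and 1.22-fold higher relative to the median gene (1.17 to 1.29). Hdac2 made up 61.9% of the summed FPKM of both deacetylases in the control and 67.2% in the Zeb2 cKO library. The Hdac2 to Hdac1 ratio was thus 1.26 times as high (1.16 to 1.37), a comparison that scaling between libraries does not touch. RefSeq also names a pseudogene of Hdac1, Hdac1-ps, and reads that match both could be split between them, so the Hdac1 level is uncertain.

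The remodelling ATPases differed from each other. Chd3 (chr11:69156775-69182928), also called Mi-2 alpha, measured 15.4 FPKM in control nerve and 34.3 FPKM in Zeb2 cKO nerve, from about 3945 and 5961 reads on a transcript of 7179 bases. It was 2.22-fold higher (2.13 to 2.31), a log2 ratio of 1.10 that stood at the 93rd percentile of all measured genes. Relative to the median gene it was 1.96-fold higher (1.88 to 2.04), which with the added FPKM is a log2 ratio of 0.92 and short of 2-fold. Chd4 (chr6:125046181-125080519), or Mi-2 beta, measured 38.03 FPKM in control nerve and 36.97 FPKM in Zeb2 cKO nerve, 0.972 of the control level (0.940 to 1.01), and 0.857 relative to the median gene (0.828 to 0.886). Chd3 held 28.9% of the summed Chd3 and Chd4 level in the control and 48.1% in the Zeb2 cKO library. The Chd3 to Chd4 ratio was 2.28 times as high (2.17 to 2.40), the largest shift among the 4 sets of alternative subunits. Their sum was 53.5 FPKM in control and 71.2 FPKM in Zeb2 cKO nerve. Each of these genes has 1 transcript row and no other gene of the tables overlaps its locus.

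Because Zeb2 binds DNA through E-boxes of the CACCTG kind, the promoters of the members were read for these letters on both strands (CACCTG or CAGGTG). RefSeq promoter windows on GRCm38.p6, from 250 bases before to 50 bases after the start site, were matched for 6 of the 10 members, Chd4, Hdac2, Mbd3, Mta1, Mta2 and Rbbp4. The letters occur in 20.2% of all 32851 windows. Chd4 held them, in both of its windows at the same site (chr6:125095938-125095967, plus strand), and the other 5 matched members did not. The sequence of the site has the E-box, here as CAGGTG, in capitals, and lies 31 bases before one annotated start site and 213 before the other. It is a match of letters and says nothing about binding.
Chd4 promoter site: tgggcggttgccCAGGTGacgcgcgcgcgc

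Among the MTA scaffold proteins, Mta2 was level and the less abundant Mta1 and Mta3 were higher. Mta1 (chr12:114336489-114375417) measured 19.5 FPKM in control nerve and 24.2 FPKM in Zeb2 cKO nerve, 1.24-fold higher (1.16 to 1.32). Mta2 (chr19:9016410-9026790) was at 34.7 FPKM in either library, a ratio of 0.999 (0.9497 to 1.05). Mta3 (chr17:84105503-84214245), summed over its 4 rows, measured 7.06 FPKM in control nerve and 9.25 FPKM in Zeb2 cKO nerve, 1.31-fold higher (1.15 to 1.49). It rests on about 511 and 438 reads, the fewest of any member. Relative to the median gene these ratios were 1.09 for Mta1 (1.02 to 1.17), 0.880 for Mta2 (0.837 to 0.925) and 1.15 for Mta3 (1.01 to 1.31). Mta2 held 56.7% of the summed MTA level in the control and 50.9% in the Zeb2 cKO library, Mta1 31.8% and 35.5%, and Mta3 11.5% and 13.6%. The odds of Mta2 against the other MTA genes were 0.794 of the control (0.735 to 0.858).

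**Figure D3:**
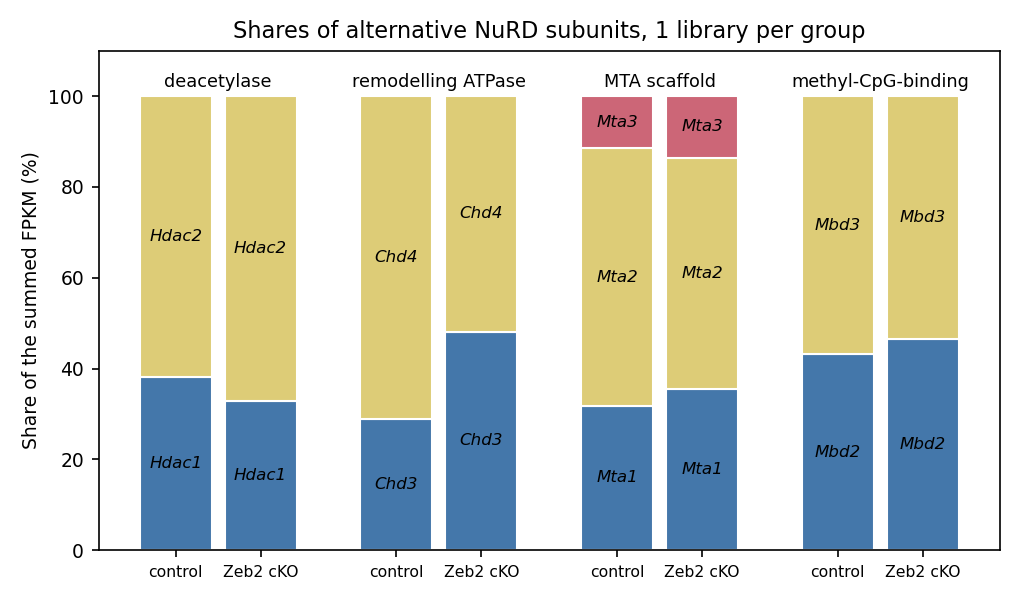
Share of the summed FPKM (vertical axis, percent) held by each of the alternative subunits at 4 places in the complex, with a bar for each library. The widest change is in the remodelling ATPases, where Chd3 goes from 28.9% to 48.1%, and the shares of Hdac2, Mta1, Mta3 and Mbd2 are larger by 5.30 points or less.

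Mta3 is the member with several transcript rows, and its rows differed in their ratios. The rows NM_001171053 and NM_001171054 end early and are called short here, while the long rows NM_001171052 and NM_054082 splice on to further exons. This grouping follows the annotation but was made after the values were seen. In GENCODE M21 (GRCm38), whose models of these accessions differ by 1 to 28 bases in length from the tables, the short models encode 514 and 513 residues and the long ones 586 and 591. The short forms read on past the last shared base, chr17:83792764, into what is intron for the long forms, and keep 20 more coding bases before the stop codon. The coding sequence around this branch point is shown with the bases after it in capitals, from chr17:83792745-83792784 for the short form and from chr17:83792745-83800069 across the splice for the long form, both on the plus strand.
Mta3 short (NM_001171054): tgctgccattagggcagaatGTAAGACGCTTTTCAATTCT
Mta3 long (NM_054082): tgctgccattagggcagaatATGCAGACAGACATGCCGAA

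The short rows themselves differ within the coding sequence by 3 bases at a splice acceptor, shown in capitals across chr17:83784316-83788940, where NM_001171054 lacks them.
Mta3 NM_001171053 junction: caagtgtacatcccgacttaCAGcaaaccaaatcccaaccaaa
Mta3 NM_001171054 junction: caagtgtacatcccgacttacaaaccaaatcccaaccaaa

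Both short rows were higher in the Zeb2 cKO library. NM_001171053 measured 1.39 FPKM in control nerve and 2.54 FPKM in Zeb2 cKO nerve, 1.83-fold higher (1.38 to 2.49). NM_001171054 measured 1.46 and 2.72 FPKM in control and Zeb2 cKO nerve, 1.86-fold higher (1.40 to 2.48). The 3-base difference between them gives few reads that tell them apart, so their sum is the safer value. That sum was 2.84 FPKM in control and 5.26 FPKM in Zeb2 cKO nerve, 1.85-fold higher (1.51 to 2.27). The long row NM_054082 measured 3.29 and 3.02 FPKM in control and Zeb2 cKO nerve, 0.920 of the control (0.749 to 1.13). NM_001171052 measured 0.931 and 0.972 FPKM, a ratio of 1.04 (0.740 to 1.45). Their sum was 4.22 and 4.00 FPKM, a ratio of 0.947 (0.795 to 1.13). Short rows made up 40.3% of the Mta3 level in the control and 56.8% in the Zeb2 cKO library. Cufflinks assigns reads of shared exons to rows by a model, so the true error of a row is wider than its counting interval.

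**Figure D4:**
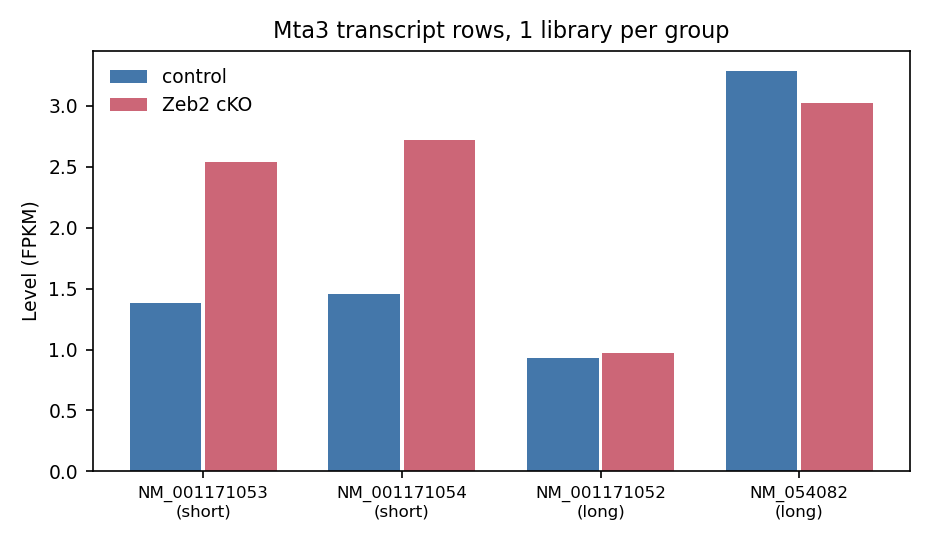
Level in FPKM (vertical axis) of the 4 Mta3 transcript rows in the control and Zeb2 cKO libraries, with 1 library per group and no error bars. The short rows stand at 1.39 and 1.46 FPKM in control nerve and at 2.54 and 2.72 FPKM in Zeb2 cKO nerve. The long rows are close to their control levels as deposited, without rescaling to the median gene.

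The methyl-CpG-binding domain subunits, of which Mbd2 binds methylated DNA and Mbd3 does so weakly if at all, differed little between the libraries. Mbd2 (chr18:70727946-70785785) measured 38.5 FPKM in control nerve and 43.7 FPKM in Zeb2 cKO nerve, 1.13-fold higher (1.07 to 1.20), and 0.999 of the control relative to the median gene (0.941 to 1.06). Mbd3 (chr10:79855286-79862224) measured 50.78 and 50.04 FPKM in control and Zeb2 cKO nerve, a ratio of 0.985 (0.930 to 1.04), and 0.868 relative to the median gene (0.819 to 0.920). It was the highest member in the control library and second to Hdac2 in the Zeb2 cKO library. Mbd2 held 43.1% of their summed level in the control and 46.6% in the Zeb2 cKO library, with the Mbd2 to Mbd3 ratio 1.15 times as high (1.06 to 1.25).

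Rbbp4, the histone chaperone that NuRD shares with Sin3 and polycomb complexes, had the lowest ratio of the members. Rbbp4 (chr4:128984344-129012614) measured 40.5 FPKM in control nerve and 37.3 FPKM in Zeb2 cKO nerve, 0.921 of the control level (0.885 to 0.958), and 0.811 relative to the median gene (0.780 to 0.844). It lies 181 kb from Hdac1 on chromosome 4. Its locus overlaps the end of Sync, at 1.85 and 0.711 FPKM, and it was the only member with an overlapping gene in the tables. Its paralogue Rbbp7, not among the members, measured 48.2 FPKM in control nerve and 57.4 FPKM in Zeb2 cKO nerve, 1.19-fold higher (1.13 to 1.25). Rbbp4 thus held 45.7% of the summed level of these chaperones in the control and 39.4% in the Zeb2 cKO library.

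The remaining subunits and partners of NuRD also lay within 2-fold. Of 7 listed, 6 were measured, 0 were 2-fold apart, and their median log2 ratio was 0.18. Zmynd8, a chromatin reader that binds NuRD, had the largest log2 ratio, 0.53, from 7.94 FPKM in control to 11.9 FPKM in Zeb2 cKO nerve. The GATA zinc finger subunits Gatad2a (13.5 and 13.6 FPKM) and Gatad2b (6.72 and 7.41 FPKM), which bridge the MBD protein to the CHD helicase, had counting intervals that held a ratio of 1. Chd5, a CHD paralogue known from neurons, measured 0.565 and 0.353 FPKM in control and Zeb2 cKO nerve, under the minimum level. Among the other histone deacetylases 0 of 8 measured were 2-fold apart, with a median of 0.22, and Hdac7 was furthest, at 13.7 and 20.7 FPKM with a log2 ratio of 0.56.

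Other complexes that compete for the same deacetylases or act on the same nucleosomes were set beside NuRD. Of the 15 genes of the Sin3 and CoREST complexes, 0 were 2-fold apart (median log2 ratio 0.12, largest 0.58 for Phf21a). The same held for 6 genes of the NCoR and SMRT complex (median 0.24, largest 0.44 for Tbl1x), 6 other methyl-CpG-binding proteins (0.19, largest 0.63 for Zbtb33), 6 measured CHD remodellers (0.25, largest 0.57 for Chd9), 5 genes of polycomb repressive complex 2 (0.25, largest 0.33 for Suz12) and 11 histone acetyltransferases (0.18, largest 0.68 for Kat6b). In these 12 lists together, 92 distinct genes besides the members were measured, and 3 were 2-fold or more higher and 1 lower, with a median of 0.20. That is 3.26% higher and 1.09% lower, against the 8.59% and 6.25% of all genes. The higher genes were Smarca2, Zeb1 and Sall2 and the lower gene was Sirt2. After rescaling to the median gene 2 were higher, Smarca2 and Zeb1, and 1 lower.

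**Figure D5:**
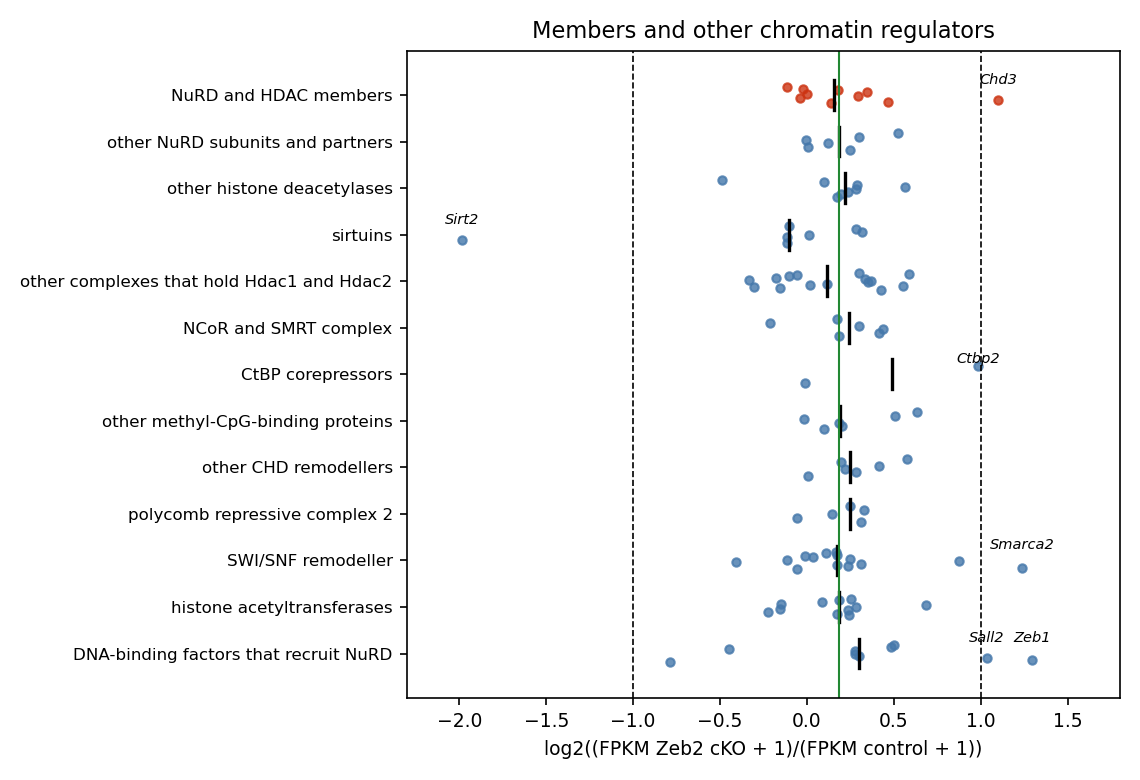
log2 ratio of Zeb2 cKO over control (horizontal axis) for each measured gene of the members and of 12 lists of chromatin regulators, with a black bar at each list's median, dashed lines at 2-fold and a green line at the median gene. Chd3, Smarca2, Zeb1 and Sall2 lie past 2-fold on the higher side and Sirt2 on the lower side, and Ctbp2 lies at 0.99.

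The list of factors that bring NuRD to DNA held 2 of the 3 higher genes. Of its 15 factors 9 were measured, Zeb2 itself included, and 2 of these were 2-fold or more higher and 0 lower, with a median log2 ratio of 0.30. Among all measured genes 8.59% were that much higher. The count of 2 became 1 after rescaling to the median gene and 1 with 5 FPKM added. Zeb1, the paralogue of Zeb2, measured 14.0 FPKM in control nerve and 35.8 FPKM in Zeb2 cKO nerve, 2.56-fold higher (2.44 to 2.69). Sall2, a zinc finger factor with a NuRD-binding motif, measured 4.05 and 9.35 FPKM in control and Zeb2 cKO nerve, 2.31-fold higher (2.10 to 2.54), with a log2 ratio of 0.87 after rescaling to the median gene. Nab2, the cofactor through which Egr2 reaches Chd4, measured 23.4 and 16.9 FPKM in control and Zeb2 cKO nerve, and its paralogue Nab1 12.9 and 15.9 FPKM. The CtBP corepressors, which Zeb2 binds directly, differed from each other. Ctbp1 measured 62.5 and 62.0 FPKM. Ctbp2 measured 9.49 FPKM in control nerve and 19.8 FPKM in Zeb2 cKO nerve, a ratio of 2.08 (1.92 to 2.26) that is 0.99 on the log2 scale with the added FPKM and passes 2-fold with 0.1 FPKM added.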

How the data were processed

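Total RNA of pooled sciatic nerves was sequenced after Illumina TruSeq library preparation, per the labels' protocols. CASAVA, TopHat, Cufflinks and Cuffdiff and the build mm9 are named in the submitters' processing notes, without versions. The deposited FPKM values were computed by the authors per RefSeq transcript, and the coverage signal that they deposited gives reads over each base of the transcript on average, unscaled. The number of per-sample columns without a group was 0. Each table was assigned to its group, since the labels list it under both samples.

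The 295 rows whose status was not OK in both libraries were dropped, and FPKM was summed per symbol. Genes whose 2 FPKM values averaged 1 or more were kept. Log2 ratios have 1 FPKM added to each value, and fold changes have none. FPKM keeps no whole counts, so no count model was used. Reads were estimated as coverage times length divided by 52.6 bases, the median of the lowest cluster of values (30 to 80 bases) in single-row genes over 2000 bases. Ratios of reads have Clopper-Pearson intervals, levels exact Poisson intervals, and shares normal intervals on the logit scale. Code was tested on simulated data.

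The members and lists were chosen with earlier results of these data known. Named were all members, Zeb2 and, in each list, up to 3 genes 2-fold apart or else the largest ratio. Some Schwann cell markers are not reported here. Rbbp7, Gatad2a, Gatad2b, Chd5, Ctbp1, Smarca4, Nab1 and Nab2 were added after their values were seen, as paralogues or partners. The macrophage and neuronal markers besides Cd163 and Gap43 were also added then, to give both directions. With 2 values per gene no likeness of patterns was ranked. Of 186 list genes 182 matched by symbol and 4 by RefSeq synonym. Reads carry no strand here. No protein sequences were used. Python 3.11.15, numpy 2.4.6, pandas 2.3.3 and scipy 1.17.1 were used.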

Additional observations from a re-analysis of the deposited data

How the results depend on the processing

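No paired analysis was possible because each condition has 1 library here, which also leaves no replicate to omit. The count of 1 member 2-fold or more higher became 0 with 5 FPKM added in place of 1 and 0 after rescaling to the median gene. It stayed 1 with 0.1 FPKM added, with rescaling to the upper quartile and at 1.5-fold. It also stayed 1 with other filters, with rows of every status and with the top row per symbol, but these could not change the call of Chd3. All member rows had status OK, every member averaged above 5 FPKM, and Chd3 has 1 row. The count of 0 lower members did not change in any of these settings. The members' median log2 ratio became -0.0208 after rescaling to the median gene, 0.064 after rescaling to the upper quartile and 0.0672 with the top row per symbol, against 0.157. Over 8 settings the log2 ratio of Chd3 ran from 0.92 to 1.14 and stayed above 0, as did those of Hdac2 and Mta1. Among these settings the filters and rows of every status leave each member's ratio as it was, and the top row alters only Mta3. The log2 ratios of Chd4, Mta2, Mbd3 and Rbbp4 stayed below 0, which none of these settings could change. Added FPKM keeps the sign of a ratio, and both rescalings lower the Zeb2 cKO levels. Hdac1 and Mbd2 were below 0 after rescaling to the median gene, at -0.04 and -0.0012, and Mta3 was at -0.09 when only its top row, NM_054082, was used. All genes counted as higher were 477 with 5 FPKM added, 739 at a mean of at least 5 FPKM and 2537 at 1.5-fold, and as lower 529 with 5 FPKM added and 1266 at 1.5-fold. Shares computed from coverage equalled those from FPKM up to rounding. Coverage and FPKM are proportional within a library, so this is not a separate check. The depth of Mta3 rows, 63 to 247 reads, limits what can be said of its forms.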

Other observations

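Outside NuRD, the paired ATPases of the SWI/SNF remodeller also differed from each other. Smarca2 (Brm) measured 14.2 FPKM in control nerve and 34.9 FPKM in Zeb2 cKO nerve, 2.46-fold higher (counting interval 2.31 to 2.62), with a log2 ratio of 1.06 after rescaling to the median gene. Smarca4 (Brg1) was at 14.2 and 13.6 FPKM, a ratio of 0.960 (0.909 to 1.01). In the control library the 14.2 FPKM of Smarca2 came from about 1634 reads and that of Smarca4 from about 3218. FPKM is per length, so the Smarca2 level rests on shorter transcript rows on average. Its rows were not examined apart, nor whether they encode the full protein, which limits the shares of Smarca2 and Smarca4. Smarca2 held 50.1% of the summed level of both genes in the control and 71.9% in the Zeb2 cKO library. The Smarca2 to Smarca4 ratio was 2.56 times as high (2.35 to 2.78). For Ctbp2 against Ctbp1 the corresponding value was 2.10 (1.92 to 2.30), and for Chd3 against Chd4 it was 2.28. These pairs were set side by side after their values were seen.

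Sirt2, a cytoplasmic deacetylase abundant in myelinating glia and unrelated to the zinc-dependent HDACs of NuRD, was the 1 gene of the chromatin lists that was 2-fold or more lower. It measured 179 FPKM in control nerve and 44.5 FPKM in Zeb2 cKO nerve, 4.02-fold lower. The other 6 sirtuins had log2 ratios between -0.12 and 0.32.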
